A study of Mus musculus with 8 samples.

Results

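The follistatin and activin genes described here are 9 mouse genes, namely Fstl1, the follistatin genes Fst and Fstl3, the activin subunit genes Inhba and Inhbb, and the receptor genes Acvr1, Acvr1b, Acvr2a and Acvr2b. They were taken by symbol from GENCODE M21 out of 56691 gene identifiers, and each of the 9 symbols matched 1 row of the count table. The list was selected on measured values to the extent that it was drawn up with the C26-against-control differences of these same libraries already known. The differences of the 9 genes are therefore given as a description, with fold changes and errors, no p-value, and a count past the threshold for all genes that is read as a description only. RNA was sequenced from tumours formed by MC38 cells, a mouse colon adenocarcinoma line, in C57BL/6J mice. In 4 of the 8 libraries the mice had been given C26, an agent known here only by its code, at 10 mg/kg on alternate days over 2 weeks, and the other 4 came from control mice whose treatment the sources used here do not specify. The labels call the tumours xenografts although cells and host are both mouse, so that RNA of tumour cells and of host stroma carries the same sequences and was counted together. Nothing in the labels says that each library came from a separate animal, and the errors below measure the spread between these libraries.

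Activins are secreted dimers of inhibin beta chains that belong to the transforming growth factor beta family. They bind a type II receptor (the product of Acvr2a or Acvr2b), which then recruits and activates a type I receptor such as the product of Acvr1b, and the signal passes into the nucleus through SMAD2 and SMAD3. Follistatin and the related FSTL3 protein wrap around activin and keep it from its receptors. FSTL1 carries a follistatin-like domain but is built like the matrix protein SPARC, is secreted mainly by mesenchymal cells and is known for binding bone morphogenetic proteins (BMPs) rather than for blocking activin. ACVR1 serves as a type I receptor mostly for BMPs and signals through SMAD1 and SMAD5.

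Total counts ran from 17075176 to 21517425 per library. All 9 genes passed the filter on low counts, as did 15755 genes in all, of which 7.76% differed between C26 and control at an adjusted p under 0.05 in edgeR's quasi-likelihood test, 3.64% being higher and 4.12% lower in C26. Of the higher and lower calls together, 46.9% were higher with TMM scaling, 78.7% when libraries were scaled by their totals alone and 29.8% once offsets corrected for length and GC of the transcripts. Libraries stood apart in skeletal muscle RNA: the mean log2 CPM (CPM, counts scaled to a common TMM-adjusted library size) of the 12 of 15 muscle markers that were tested was 2.10, 5.45, 3.49 and 1.36 in C26 libraries 1 to 4, against -0.76, 1.68, -0.58 and -0.62 in control libraries 1 to 4 (exact permutation p = 0.0571, adjusted p = 0.0857 over 6 marker lists). Summed over all 15 markers this was 40.3 to 760 CPM in C26 and 17.2 to 61.4 CPM in control, and none of the 15 was at 0 in all libraries. Values without C26 libraries 2 and 3, the highest in these transcripts, are given beside each of the 9 genes whose fold change they moved. The mean muscle level was 3.10 in C26 and -0.07 in control, so it went largely with the group. A fit with the muscle level as a covariate can separate it from C26 only in part, and its values are a description. Of the other lists, endothelial markers differed by 0.38 in mean log2 CPM (exact permutation p = 0.0857, adjusted p = 0.103), smooth muscle and pericyte markers by 0.64 (exact permutation p = 0.0571, adjusted p = 0.0857), macrophage markers by -0.36 (exact permutation p = 0.114, adjusted p = 0.114) and red blood cell markers by -1.68 (exact permutation p = 0.0286, adjusted p = 0.0857). No list passed after adjustment. The smallest exact permutation p that 4 against 4 libraries can give is 0.0286, and lists at that floor still stood at 0.0857 after adjustment. The lack of a pass thus does not show equal composition. Red blood cell markers had a mean log2 CPM of at most 0.57 in C26 and at least 1.30 in control. Adipocyte markers summed to at most 1.41 CPM in C26 and 1.59 CPM in control, and T cell markers to 0.962 to 1.92 CPM in C26 and 1.64 to 2.69 CPM in control. Epithelial markers were near 0 apart from Cdh1, with a summed level of 8 genes of 2.75 to 3.603 CPM in C26 and 2.74 to 4.60 CPM in control and Cdx2 at 0 counts in all 8 libraries. The colon epithelial origin of the labelled line is thus not visible in these markers.

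Per length of exon, Fstl1 was by far the most abundant of the 9 genes and Fst the least. Fstl1 stood at 82.6 ± 8.58 CPM per kb of exon in C26 and 53.2 ± 4.47 in control (SD, n = 4 each, as for all group values below). Inhba followed at 12.9 ± 2.10 in C26 and 13.8 ± 1.16 CPM per kb in control, and Acvr1 at 11.2 ± 2.03 in C26 and 9.77 ± 0.520 CPM per kb in control. Over the 8 libraries the ranges of these last genes overlapped, from 11.1 to 15.6 for Inhba and from 8.90 to 13.8 CPM per kb for Acvr1, so their order is not settled. Acvr2a had 4.71 ± 0.363 in C26 and 3.41 ± 0.267 CPM per kb in control, and Acvr1b 3.30 ± 0.373 in C26 and 2.68 ± 0.300 in control. Their ranges over all libraries overlapped as well, although Acvr2a lay above Acvr1b in the mean of each group. The remaining 4 genes were close together, with means over 8 libraries of 1.38 CPM per kb for Fstl3, 1.16 for Inhbb, 0.667 for Acvr2b and 0.539 for Fst, and each overlapped its neighbour in this order. Among all 15755 genes tested, the per-length level of Fstl1 was at the 94.99th percentile and that of Fst at the 12.5th. The place of Fst depends on the length used, since its annotated exons cover 4589 bases but its principal transcript only 1113, and with that shorter length its mean was 2.22 CPM per kb.

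**Figure D1:**
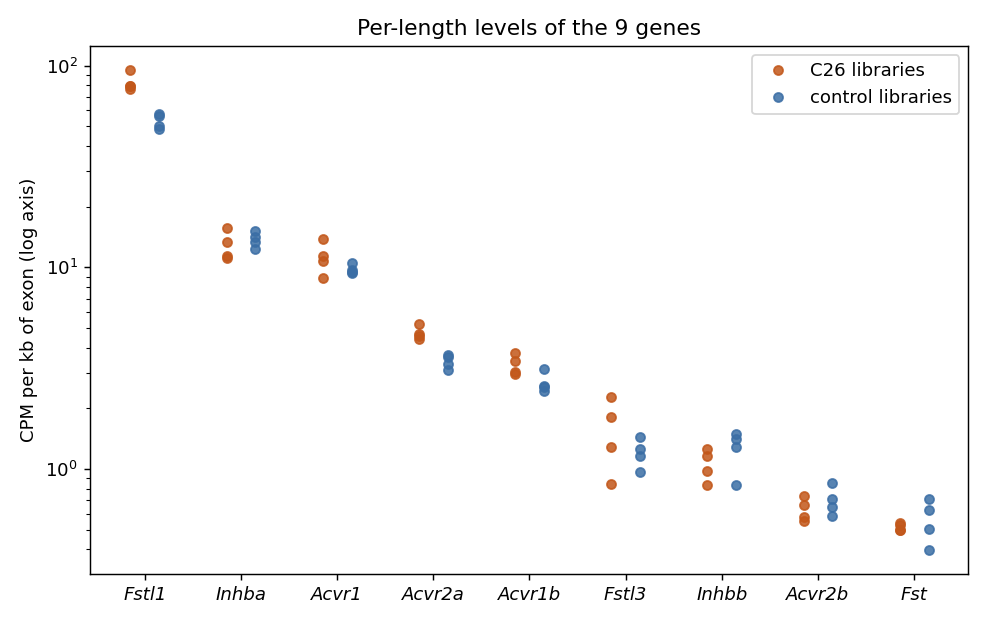
Levels of the 9 genes per kb of annotated exon, on a log axis, with 1 point per library (C26 left of control within each gene) and genes in descending order of their mean. Fstl1 spans 48.6 to 95.3 CPM per kb over the 8 libraries, whereas Fstl3, Inhbb, Acvr2b and Fst reach at most 2.27.

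Fstl1 (chr16:37776873-37836514, plus strand, GRCm38) was higher in all 4 C26 libraries than in any control library. It had 390, 389, 375 and 468 CPM in C26 libraries 1 to 4, against 282, 239, 278 and 246 CPM in control libraries 1 to 4. The groups were far apart, and C26 library 4 lay above the other 3 C26 libraries, which differed little among themselves. The means were 406 ± 42.2 CPM in C26 and 261.2 ± 22.0 CPM in control, a fitted log2 fold change of 0.64 ± 0.0839 (SE), or 1.55-fold with a 95% interval of 1.37 to 1.76. Read counts behind these levels ran from 7394 to 9245 in C26 and from 4060 to 5978 in control, so counting error was small. The log2 fold change stayed between 0.55 and 0.82 over 17 alternative settings, and it was larger without C26 libraries 2 and 3 (0.72) and with the muscle level as a covariate (0.82) than over all libraries. The muscle-rich C26 libraries 2 and 3 were thus not the ones with the highest Fstl1. Since the muscle level went largely with the group, the covariate value is a description only.

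Markers of fibroblasts, cells that are known to make FSTL1, also had a higher mean in C26. This was not particular to fibroblasts. Smooth muscle and pericyte markers (0.64) and endothelial markers (0.38) had higher mean log2 CPM in C26 too. The mean log2 CPM of 12 fibroblast markers was 7.02, 6.75, 6.70 and 7.04 in C26 libraries 1 to 4, against 6.55, 6.32, 6.66 and 6.07 in control libraries 1 to 4. Control library 3 came close to the lowest C26 library, and the difference in means was 0.48 (exact permutation p = 0.0286, the smallest that 4 against 4 libraries can give, adjusted p = 0.0857 over 6 marker lists). The 12 markers summed to between 5738 and 7934 CPM in C26 and between 3392 and 5213 CPM in control. Of them 11 had a log2 fold change above 0. In edgeR 2 were called higher, beside 3.64% of all tested genes. Set against the matrix gene Sparc in the same library, Fstl1 per length amounted to 0.222 ± 0.0205 of Sparc in C26 and 0.183 ± 0.0147 in control, with the lowest C26 library (0.196) level with the highest control library (0.196). Against the collagen gene Col1a1 the share was 0.418 ± 0.0753 in C26 and 0.495 ± 0.114 in control, and the groups overlapped. In bulk tumour RNA, more cells of a type and more RNA per cell cannot be told apart, and the part of fibroblast content in the Fstl1 difference was not tested.

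Fst (chr13:114452290-114458951, minus strand), the gene of the main activin inhibitor, showed no separation of the groups. It had 2.43, 2.49, 2.28 and 2.28 CPM in C26 libraries 1 to 4, against 2.88, 2.33, 1.83 and 3.27 CPM in control libraries 1 to 4. The control libraries spread over both sides of the C26 libraries, which were almost equal to each other. The fold was 0.923 (95% interval 0.677 to 1.26), on 45 to 50 reads per C26 library and 37 to 61 per control library, and a change of the size seen for Fstl1 lies outside this interval. Without control library 4 the log2 fold change was 0.01, against -0.12 with all libraries.

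Fstl3 (chr10:79777272-79782630, plus strand), whose product also binds activin, varied more between libraries than most genes did. Its levels were 2.06, 5.55, 4.42 and 3.14 CPM in C26 libraries 1 to 4, against 3.54, 2.85, 2.37 and 3.09 CPM in control libraries 1 to 4. C26 held both the highest and the lowest value, and the highest were those of the muscle-rich C26 libraries 2 and 3. Among the control libraries, the most muscle-rich, library 2 (2.85), was not the highest in Fstl3. The fitted fold was 1.28 (95% interval 0.879 to 1.87), and the spread within groups, an SD of 0.458 on the log2 scale, was at the 91.0th percentile of all genes tested. Without C26 libraries 2 and 3 the log2 fold change was -0.19, and with the muscle level as a covariate it was -0.29, against 0.36 over all libraries. The direction for Fstl3 therefore rested on those libraries, and the part of muscle RNA in it was not tested. Of the 2445 exon bases of Fstl3, 1157 are shared with Prss57 on the opposite strand, which had 0 to 2 reads per library. Since the strand setting of the count is not known, reads of the shared stretch could have gone uncounted. The level of Fstl3 per length may thus be too low.

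Inhba (chr13:16011851-16031621, plus strand) encodes the beta A chain, the subunit of activin A. It had 71.2, 99.9, 85.5 and 72.5 CPM in C26 libraries 1 to 4, against 85.7, 90.2, 79.2 and 96.8 CPM in control libraries 1 to 4. The groups overlapped, and within C26 the high and the low pair matched those of Fstl3, with libraries 2 and 3 above libraries 1 and 4. The fold was 0.936 (95% interval 0.806 to 1.09). The log2 fold change was below 0 in all 17 alternative settings, from -0.41 with the muscle level as a covariate to -0.02 with scaling by library totals, against -0.10 in the fit over all libraries, and it was -0.29 without C26 libraries 2 and 3 and -0.28 with the length and GC offsets. Inhbb (chr1:119415465-119422248, minus strand), which encodes the beta B chain, had 5.33, 4.15, 3.56 and 4.91 CPM in C26 libraries 1 to 4, against 3.54, 5.44, 6.03 and 6.37 CPM in control libraries 1 to 4. Only control library 1 kept the groups from separating, being the lowest of all 8. The Inhbb fold was 0.841 (95% interval 0.631 to 1.122). Its log2 fold change was -0.41 without control library 1 and -0.06 without C26 libraries 2 and 3, against -0.25 over all libraries.

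**Figure D2:**
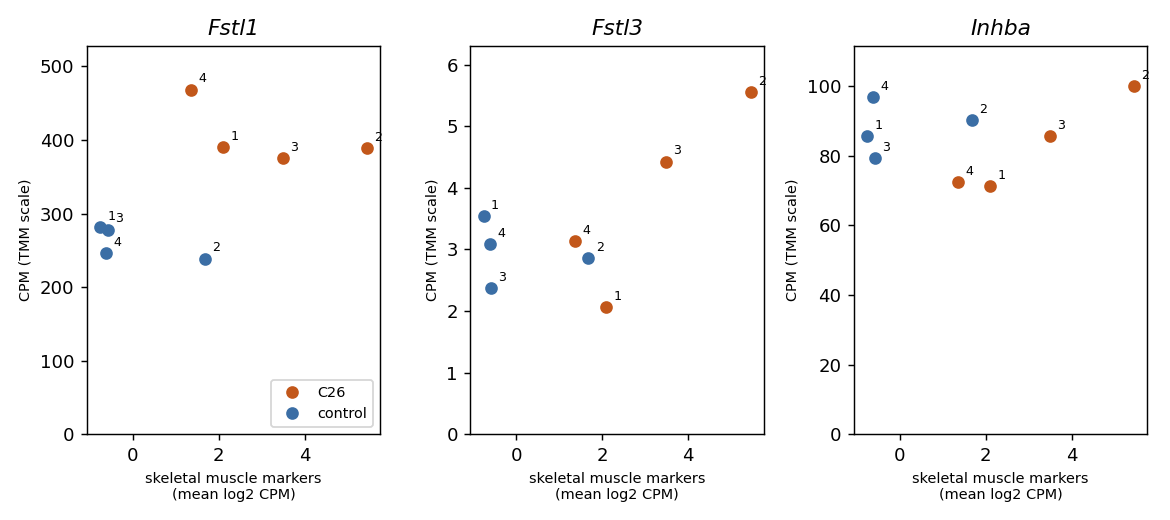
CPM of Fstl1, Fstl3 and Inhba in each library (vertical axes, from 0) against the mean log2 CPM of 12 skeletal muscle markers in that library (horizontal axes), with library numbers beside the points. Within C26, Fstl3 and Inhba are highest in libraries 2 and 3, at muscle levels of 5.45 and 3.49, whereas Fstl1 is highest in library 4, at 1.36. Among the control libraries, library 2 has the highest muscle level (1.68), but Fstl3 is highest in library 1 and Inhba in library 4.

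The balance of inhibitor to ligand transcripts overlapped between the groups. Summed per length, Fst and Fstl3 came to 0.111, 0.170, 0.162 and 0.143 of Inhba and Inhbb in C26 libraries 1 to 4, against 0.146, 0.109, 0.0991 and 0.119 in control libraries 1 to 4. The means were 0.146 ± 0.0263 in C26 and 0.118 ± 0.0201 in control, and the groups overlapped. Inhba exceeded Inhbb per length by a factor of 12.7 ± 3.86 in C26 and 11.5 ± 3.22 in control. Transcripts of Inhba and Inhbb were therefore in excess of those of Fst and Fstl3 in every library, and the beta A chain was the main one. The size of the excess depends on the length used. Per kb of principal transcript, means over 8 libraries were 2.22 CPM for Fst and 1.73 for Fstl3, against 13.3 for Inhba. Inha, the inhibin alpha chain gene (5.47 CPM per kb of exon over 8 libraries), entered neither sum.

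Acvr2a (chr2:48814109-48903269, plus strand), the gene of activin receptor type IIA, was the other gene whose groups did not overlap. It had 25.9, 29.8, 25.1 and 26.4 CPM in C26 libraries 1 to 4, against 17.5, 20.4, 18.8 and 20.9 CPM in control libraries 1 to 4. All C26 libraries lay above all control libraries with a clear gap. The means were 26.8 ± 2.06 CPM in C26 and 19.4 ± 1.52 CPM in control, a log2 fold change of 0.47 ± 0.0928 (SE), or 1.38-fold (95% interval 1.21 to 1.58). Acvr2a is a long transcript of low GC content (5686 bases, 39.9% GC), and its log2 fold change was 0.27 with the length and GC offsets, the lowest of 17 alternatives, and 0.33 with the muscle level as a covariate. Its exons share 446 bases with those of Orc4 on the opposite strand. Orc4 had 84.2 ± 7.61 CPM in C26 and 74.7 ± 4.28 CPM in control (log2 0.17), and since the strand setting of the count is not known, reads of the shared stretch could belong to either gene.

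Acvr2b (chr9:119402118-119434995, plus strand), the gene of the type IIB receptor, did not follow Acvr2a. It had 2.90, 2.60, 2.28 and 2.18 CPM in C26 libraries 1 to 4, against 2.55, 2.80, 3.36 and 2.30 CPM in control libraries 1 to 4, with overlapping groups and a fold of 0.901 (95% interval 0.674 to 1.203). Per length, Acvr2a exceeded Acvr2b by a factor of 6.15, 7.93, 7.61 and 8.39 in C26 libraries 1 to 4, against 4.76, 5.03, 3.86 and 6.25 in control libraries 1 to 4. The ratio of the type II receptors thus had a higher mean in C26 (7.52 ± 0.965 in C26 and 4.98 ± 0.988 in control), although C26 library 1 stood just below control library 4.

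The type I receptor genes Acvr1b and Acvr1 had means that were higher in C26, with overlapping groups. Acvr1b (chr15:101174067-101213684, plus strand), whose product is the usual partner of the type II receptors for activin, had 15.3, 16.6, 13.5 and 13.1 CPM in C26 libraries 1 to 4, against 13.8, 11.4, 10.8 and 11.3 CPM in control libraries 1 to 4. Control library 1 alone reached into the C26 range. The Acvr1b fold was 1.23 (95% interval 1.04 to 1.47), and its log2 fold change lay between 0.19 and 0.38 over 17 alternatives. Acvr1 (chr2:58388644-58567157, minus strand) had 54.9, 51.9, 43.0 and 66.7 CPM in C26 libraries 1 to 4, against 45.7, 46.9, 50.8 and 45.3 CPM in control libraries 1 to 4. C26 library 3 was the lowest of all 8 and C26 library 4 the highest, which was also the library with the highest Fstl1. The Acvr1 fold was 1.15 (95% interval 0.979 to 1.34), and its log2 fold change was 0.08 without C26 library 4 and 0.37 without C26 libraries 2 and 3, against 0.20 over all libraries.

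**Figure D3:**
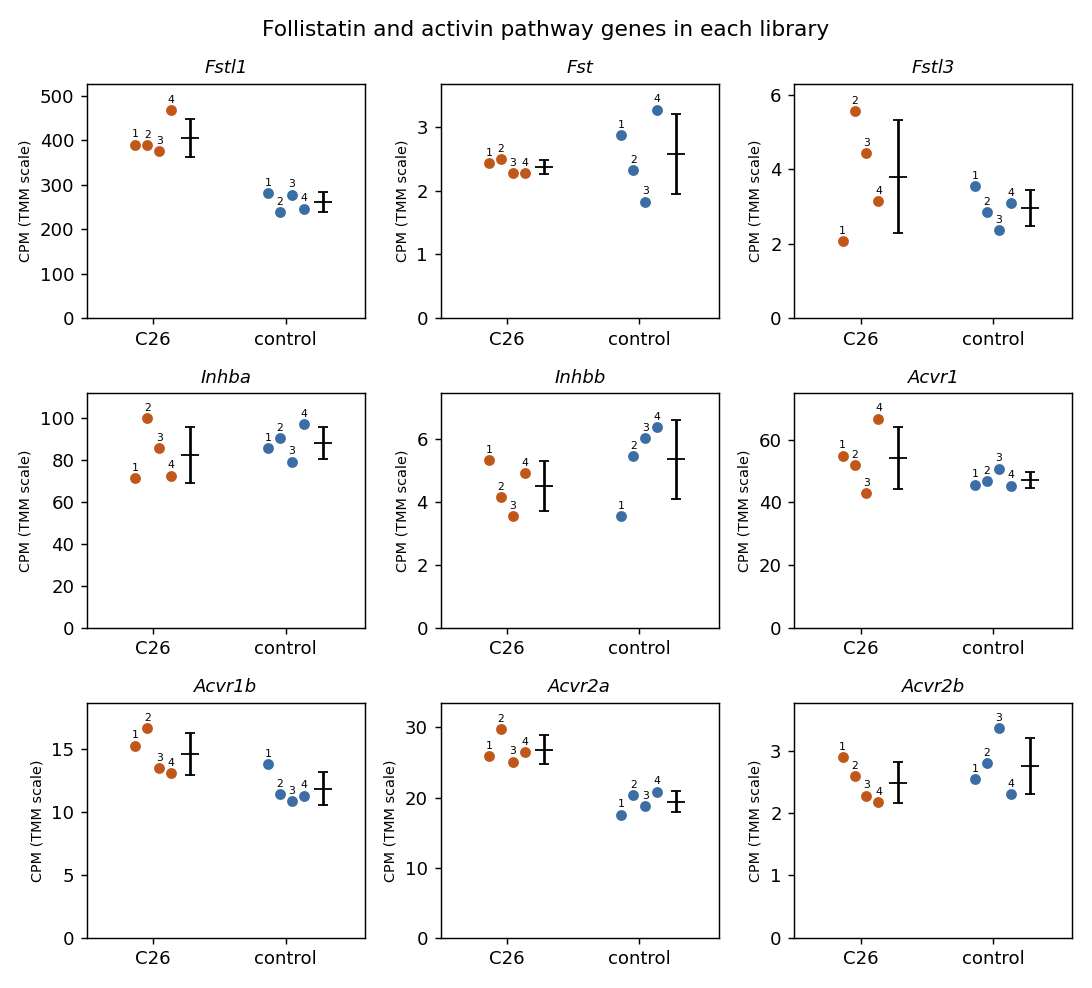
CPM of each of the 9 genes in the 4 C26 libraries (left) and the 4 control libraries (right), with library numbers above the points and the mean ± SD as a bar. The groups are separate for Fstl1 and Acvr2a and overlap for the other 7.

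Of the 9 genes, 2 were past edgeR's adjusted threshold and both were higher in C26, Fstl1 and Acvr2a, beside 3.64% of all tested genes called higher, 4.12% called lower and 7.76% called in either direction. The same 2 genes were those whose groups did not overlap, beside 16.1% of all tested genes. With the muscle covariate or the length and GC offsets only Fstl1 was called, beside 0.616% and 3.90% of all tested genes. Without C26 libraries 2 and 3 Acvr1 was called as well as Fstl1 and Acvr2a, beside 5.50% of all tested genes. Since the genes were chosen with this contrast known, nothing is read from these counts. The median log2 fold change of the 9 genes was 0.20 and that of all tested genes 0.01. The log2 fold change was above 0 for 5 of the 9 genes and below 0 for 4.

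**Figure D4:**
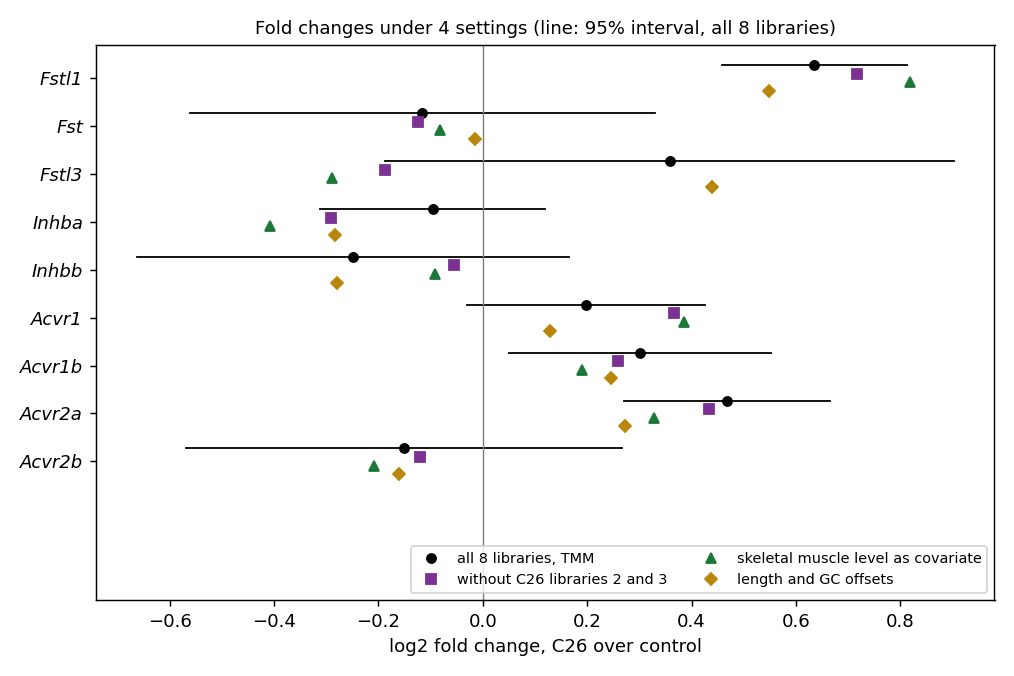
Fitted log2 fold changes of C26 over control for the 9 genes, with the 95% interval of the fit over all 8 libraries as a line and markers for that fit and for 3 alternatives. Fstl1 and Acvr2a lie above 0 under all 4 settings, and Fstl3 lies at 0.36 over all libraries but below 0 without C26 libraries 2 and 3 and with the muscle covariate.

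Promoter sequences are shown for Fstl1 and Acvr2a, the genes whose groups were separate, and for Inhba, the main ligand gene, whose groups overlapped. RefSeq windows on GRCm38.p6, from 250 bases before to 50 bases after a gene's start, were found for 8 of the 9 genes, all but Fst. Only bases upstream of both the RefSeq and the GENCODE start are printed, which leaves 68 bases for Fstl1, whose starts lie 182 bases apart. Capitals mark CAGAC read on either strand (GTCTG on the other), the core of the CAGA box that SMAD3 and SMAD4 can bind.
Fstl1, chr16:37776805-37776872, plus strand: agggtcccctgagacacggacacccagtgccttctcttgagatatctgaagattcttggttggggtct
Acvr2a, chr2:48813859-48814108, plus strand: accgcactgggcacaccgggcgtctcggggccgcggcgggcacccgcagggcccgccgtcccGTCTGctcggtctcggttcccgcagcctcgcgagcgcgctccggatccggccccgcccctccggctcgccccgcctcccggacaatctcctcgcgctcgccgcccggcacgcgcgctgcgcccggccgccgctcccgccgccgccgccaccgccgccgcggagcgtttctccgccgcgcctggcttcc
Inhba, chr13:16011601-16011850, plus strand: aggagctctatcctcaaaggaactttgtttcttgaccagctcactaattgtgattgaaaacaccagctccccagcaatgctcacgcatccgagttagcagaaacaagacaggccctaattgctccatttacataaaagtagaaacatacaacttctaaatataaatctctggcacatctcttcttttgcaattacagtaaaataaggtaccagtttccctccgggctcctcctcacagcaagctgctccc

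The 3 windows differ in base content. The Acvr2a window of 300 bases holds 54 CpG dinucleotides and 80.3% GC, and that of Fstl1 21 CpG and 66.7% GC, whereas that of Inhba holds 7 CpG and 47.7% GC. Of the 8 genes with a window, 7 had 20 or more CpG, all but Inhba, compared with 26.5% of all 32851 windows of this length. The counts here include Acvr1 (51 CpG, 7 GGCGC), whose RefSeq and GENCODE starts lie 329 bases apart. Its window has 0 bases upstream of the GENCODE start and lies wholly inside the gene as annotated there. The Fstl1 window also lies mostly inside the gene as annotated there, with 68 of its 300 bases upstream of the GENCODE start. CAGAC, searched on both strands with overlapping matches counted, was found in 3 of the 8 (Fstl3, Acvr2a and Acvr2b) and in 49.6% of all windows. TATAAA was found in Fstl3 and Inhba, 2 of 8, and in 13.6% of all windows. GGCGC, another sequence that SMAD proteins can bind, was found in 6 of 8 and in 36.9% of all windows, and CCAAT in 0 of 8 and 37.4%. Fstl1 had none of these 4 motifs in its window, and a match or its lack in this window is a description of the letters alone.

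Other genes of the activin and BMP pathways were taken as lists of symbols. Of 103 such genes 63 passed the filter on low counts, and 6 rose and 1 fell in edgeR's quasi-likelihood test with Benjamini-Hochberg adjustment over all genes, beside 3.64% and 4.12% of all tested genes. Their median log2 fold change was 0.00, against 0.01 for all tested genes. The lists were chosen with earlier results of these data known, so the counts are a description. The shares of all tested genes apply equally to each list below. With the muscle level, which went largely with the group, as a covariate 0 of the 63 passed in edgeR, beside 0.616% of all tested genes. In that fit 14 of the 63 had an unadjusted p under 0.05. In DESeq2 over all libraries 8 passed, beside 11.5% of all genes, and without control library 2 the count in edgeR was 1, beside 4.40% of all genes.

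The list of other ligands had 1 of 8 tested members higher and 0 lower (median log2 fold change 0.08). The member past the threshold was Bmp1, which despite its name encodes the protease that trims procollagen and not a receptor ligand. Bmp1 had 202 ± 31.3 CPM in C26 and 160 ± 10.4 CPM in control (log2 0.33, edgeR adjusted p = 0.0449), and it was past the threshold in 8 of 17 alternatives (adjusted p up to 0.117). Without C26 libraries 2 and 3 its log2 fold change was 0.51 (edgeR adjusted p = 0.00439). Inha, which encodes the alpha chain that turns activin subunits into inhibin, was lower in all 4 C26 libraries but did not pass, at 6.96 ± 0.590 CPM in C26 and 9.16 ± 1.26 CPM in control (edgeR adjusted p = 0.0785), although it passed in DESeq2. It is named after its values were seen. Among other receptors and coreceptors 1 of 7 rose and 0 fell (median 0.21). This was Bmpr1a, a type I receptor gene for BMPs, at 80.5 ± 8.61 CPM in C26 and 65.4 ± 2.50 CPM in control (log2 0.30, edgeR adjusted p = 0.0313), past the threshold in 9 of 17 alternatives (adjusted p up to 0.371). Without C26 libraries 2 and 3 Bmpr1a stood at 0.27 on the log2 scale (edgeR adjusted p = 0.0769).

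Other extracellular antagonists had 1 of 8 members higher and 0 lower, at a median of -0.12. Nbl1, which encodes a BMP antagonist of the DAN family, had 1.32 ± 0.347 CPM in C26 and 0.632 ± 0.134 CPM in control (log2 1.05, edgeR adjusted p = 0.0446), with no overlap between the groups. It was past the threshold in 7 of the 16 alternatives in which it was tested (adjusted p up to 0.407), and not without C26 libraries 2 and 3 (log2 0.93, edgeR adjusted p = 0.177). SMADs and their regulators had 0 of 16 members past the threshold in edgeR (median -0.03), with 4 at an unadjusted p under 0.05 and 0 past it in DESeq2. The members with the smallest p were Tgif1, a corepressor gene, at 72.8 ± 2.57 CPM in C26 and 87.9 ± 14.3 CPM in control (adjusted p = 0.0884), and Smurf2, a ubiquitin ligase gene, at 66.4 ± 5.42 CPM in C26 and 57.0 ± 5.07 CPM in control (adjusted p = 0.105).

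Genes known to respond to SMAD2 and SMAD3 had 0 of 11 members higher and 1 lower (median -0.03). Cdkn2b, which encodes the cell cycle inhibitor p15, fell to 15.4 ± 1.29 CPM in C26, against 19.9 ± 0.869 CPM in control (log2 -0.36, edgeR adjusted p = 0.0313), without overlap, and it was past the threshold in 8 of 17 alternatives (adjusted p up to 0.321), and not without C26 libraries 2 and 3 (log2 -0.36, edgeR adjusted p = 0.0740). Genes known to respond to SMAD1 and SMAD5 had 0 of 10 past the threshold in edgeR (median -0.09), with 2 at an unadjusted p under 0.05 and 0 past it in DESeq2. The smallest p in that list belonged to Hey1, a transcriptional repressor gene, at 1.94 ± 0.511 CPM in C26 and 1.25 ± 0.184 CPM in control (adjusted p = 0.130), and to Id3, an inhibitor of helix-loop-helix factors, at 7.21 ± 2.19 CPM in C26 and 5.29 ± 0.960 CPM in control (adjusted p = 0.188).

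Relatives of Fstl1 in the follistatin domain and SPARC family had 3 of 7 tested members higher and 0 lower (median 0.21). Of all tested genes 3.64% were called higher and 4.12% lower. Sparc, which encodes a collagen-binding matrix protein, had 1411 ± 111 CPM in C26 and 1102 ± 78.9 CPM in control (log2 0.36, edgeR adjusted p = 0.0127) and was past the threshold in 16 of 17 alternatives, all but the muscle covariate (adjusted p = 0.0848). Sparcl1, which encodes a secreted relative of SPARC, had 36.9 ± 8.64 CPM in C26 and 20.9 ± 3.46 CPM in control (log2 0.82, edgeR adjusted p = 0.0188), with C26 library 3 below the highest control library, and it was kept in 10 of 17 alternatives (adjusted p up to 0.112). Smoc2, which encodes a calcium-binding matrix protein, had 2.40 ± 1.04 CPM in C26 and 1.05 ± 0.319 CPM in control (log2 1.19, edgeR adjusted p = 0.0313) and was kept in 9 of 17 (adjusted p up to 0.732). Its CPM was 2.11, 3.89, 2.14 and 1.47 in C26 libraries 1 to 4, in the same order as the muscle level. Control libraries 1 to 4 had 1.46, 1.06, 0.692 and 0.970 CPM and did not keep that order. Control library 1 was highest in Smoc2 and lowest in muscle level (-0.76). Without C26 libraries 2 and 3 the log2 fold change of Smoc2 was 0.76 (edgeR adjusted p = 0.205). The reported binding partners of the FSTL1 protein had 0 of 3 past the threshold in edgeR, with 1 at an unadjusted p under 0.05 and 0 past it in DESeq2. They included Dip2a at 65.3 ± 3.74 CPM in C26 and 57.7 ± 2.91 CPM in control (adjusted p = 0.128) and Tlr4 at 14.1 ± 1.76 CPM in C26 and 12.6 ± 1.22 CPM in control (adjusted p = 0.418). Fibroblast markers, given above with Fstl1, also had a higher mean in C26. Within C26 they were highest in libraries 1 and 4 (7.02 and 7.04). Sparc had 1538, 1333, 1304 and 1469 CPM in C26 libraries 1 to 4, and Sparcl1 44.8, 36.4, 24.9 and 41.3 CPM. Both were thus also highest in libraries 1 and 4, whereas Smoc2 was lowest in library 4 (1.47). The part of fibroblast content in the SPARC family differences was not tested.

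**Figure D5:**
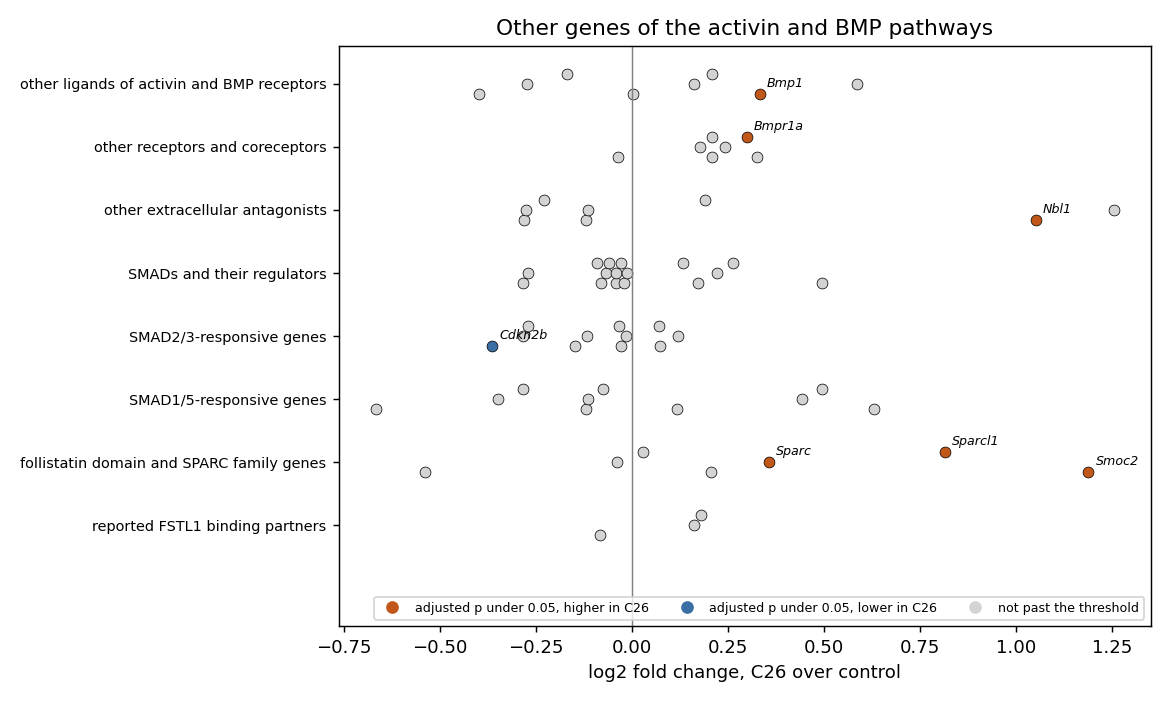
Log2 fold changes of C26 over control for the tested genes of 8 lists of other pathway genes, with 1 point per gene and colour for genes past the adjusted threshold in edgeR. A gene in several lists is drawn in each, and most points lie near 0. The SPARC family list has 3 of its 7 points past the threshold, all higher in C26, beside 3.64% of all tested genes called higher.

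By likeness of pattern, the genes closest to Fstl1 were Ankrd12, Hivep2, Usf3, Marf1 and Spred1, with a Pearson r of log2 CPM over the 8 libraries of 0.992, 0.990, 0.983, 0.983 and 0.977. They were the 5 highest among 9294 candidates with a mean of at least 10 CPM, of which 180 had an r of at least 0.9, and the libraries share group and composition, so the values describe likeness only. Centred within each group, r was still 0.951 for Ankrd12, 0.917 for Hivep2, 0.883 for Usf3, 0.966 for Marf1 and 0.791 for Spred1. Their log2 fold changes were smaller than that of Fstl1, from 0.24 for Marf1 to 0.56 for Hivep2. Ranked by Spearman's rho instead, 1 of the 5 genes stayed among the first 5.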

How the data were processed

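The deposited table holds raw whole-number counts per Ensembl gene for each of the 8 libraries, which the authors did not normalise, per the file headers. HISAT2 2.2.1, featureCounts 2.0.1, Trim Galore 0.6.7 and the mm10 build are named, per the submitters' processing notes, while the series text names Cutadapt, STAR, Picard and RSEM. The sources used here do not give the annotation release or the strand setting. Names, coordinates and exon lengths came from GENCODE M21 (GRCm38, the same assembly as mm10), and 52073 of 56691 identifiers had a symbol.

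Genes passing filterByExpr were TMM-scaled and then tested in edgeR 4.0.16 (quasi-likelihood, robust, group as the sole term, two-sided, Benjamini-Hochberg adjusted p under 0.05) in R 4.3.3. The test was also run on simulated counts without composition differences between libraries, so that run says nothing about such differences. CPM are on the TMM scale, log2 CPM used a prior count of 2, and 95% intervals come from the fitted SE. Marker lists, in which 6 lists had at least 3 tested genes, were compared by exact two-sided permutation over 70 arrangements. Alternatives were RLE factors, library totals, 2 other low-count filters, DESeq2 1.42.0, a replicate block, leaving out each library or C26 libraries 2 and 3, a muscle covariate and length and GC offsets (splines of 4 degrees of freedom). Members and lists were chosen with earlier results of these data known. Named genes are all 9 members, each list's genes past the threshold or, where it has none, the 2 with the smallest p, and the 5 genes most like Fstl1; Inha, outside this rule, was added after its values were seen. Marker lists for adipocytes, epithelium and T cells had too few tested genes to compare.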

Additional observations from a re-analysis of the deposited data

Results flagged for a closer look

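Of 30 sets of 4 libraries examined, 3 held a library far from its group, and chance gives about 1 in 20. Fstl1 was at 468.2 CPM in C26 library 4, above 375 to 390 CPM in the other C26 libraries. The skeletal muscle markers had a mean log2 CPM of 1.68 in control library 2, against -0.76 to -0.58 in the other control libraries. The endothelial markers had a mean log2 CPM of 3.493 in control library 3, against 2.84 to 2.93 in the other control libraries. Without C26 library 4 the log2 fold change of Fstl1 was 0.56.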

How the results depend on the processing

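Over 9 genes and 17 alternatives, 150 of 153 log2 fold changes kept the sign of the fit over all libraries, and the 3 others were those of Fst without control library 4 and of Fstl3 without C26 libraries 2 and 3 and with the muscle covariate. The count of all genes called was 1223, and it was 1949 with library totals, 1948 with no low-count filter, 97 with the muscle covariate, 604 with length and GC offsets, and 643 to 1457 when single libraries were left out (725 without C26 library 4, and 643, 703 and 644 without control libraries 1, 2 and 3). The count of other pathway genes called was 7, and it was 14 with library totals, 11 with no filter, 0 with the muscle covariate, 3 with the offsets, and 1 to 6 when single libraries were left out (3 without C26 library 2 or 4 or control library 4, 2 without control library 1 or 3, and 1 without control library 2). The cause of these differences was not tested. With the replicate number as a block 1184 genes and 6 other pathway genes were called. Same-numbered libraries correlated from -0.02 to 0.13 in their deviations, and differently numbered ones from -0.20 to 0.21. With 4 libraries per group these values cannot settle whether same-numbered libraries shared more than a number. Marker list differences kept their sign under a prior count of 0.5 and with each library left out. Of the 5 genes most like Fstl1, 1 remained under Spearman's rho. Fst, Fstl3 and Acvr2b rest on 37 to 107 reads per library, which limits how small a difference can be seen.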
